A study of Mus musculus with 24 samples.

Results

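The EGR, KLF and other early response genes described here were Egr1, Egr2, Klf2, Klf4, Klf6, Klf10, Ier2, Ier3 and Dusp1. They were chosen by name: a gene was taken when its symbol in the count tables was 1 of these 9. Each symbol was found once among the 32719 genes listed. The names, and the gene lists used below, were picked with earlier results of these data known, so their counts beside all genes are a description. All 9 were abundant enough to be tested.

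Early response genes are switched on by growth factors, stress and cell contact through signals that act on transcription factors already present in the cell, and their messages are short-lived. The EGR and KLF proteins are zinc-finger transcription factors that bind GC-rich DNA. IER proteins are small products of the same response, and Dusp1 encodes a phosphatase that switches off mitogen-activated protein kinases, mainly p38 and JNK. In astrocytes such genes are known to respond to injury, growth factors and neurotransmitters.

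RNA came from primary astrocytes of the cerebral cortex of newborn mouse pups with loxP sites in the insulin receptor gene, so all 24 libraries carried the floxed allele and all cultures had been infected with adenovirus. Cultures given a virus for green fluorescent protein alone were the floxed controls (IRflox), and those given a virus for Cre joined to this protein were the knockouts (IRKO); genotype and virus cannot be told apart. The cells were used 5 days after infection, starved of serum overnight in medium with albumin and then treated for 6 h with vehicle or with insulin or IGF-1 at 100 nM. Each of the 6 groups held 4 libraries, made by poly-A selection from 2 µg of RNA whose integrity score was above 7, without strand information, and read as 150 bp pairs. Other cells were shaken off the flasks on the day after plating, per the labels. Nothing in the labels tells whether a group's 4 libraries are separate cultures or pups, so p-values cover only their spread, which may be a technical one.

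On mm10, from GENCODE M21, Klf2 lies at chr8:72319033-72321656 on the plus strand, Klf4 at chr4:55527143-55532466 on the minus strand, Klf6 at chr13:5861482-5870394 on the plus strand and Klf10 at chr15:38291463-38300706 on the minus strand. Egr1 lies at chr18:34859823-34864984 and Egr2 at chr10:67535475-67542188, both on the plus strand. Ier2 lies at chr8:84661331-84662852 on the minus strand, Ier3 at chr17:35821684-35822923 on the plus strand and Dusp1 at chr17:26505590-26562128 on the minus strand. All 9 are protein coding. Dusp1 shared 11 exon bases (0.332% of its exon length) with Ergic1 on the other strand, and the other 8 shared none with a measured gene.

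The libraries held 15429688 to 19010986 gene counts, and 14.5 to 23.2% of reads were not counted as a unique overlap. Insr, the deleted gene, stood at 61.6 ± 3.60 CPM (counts scaled to a common library size; mean ± SD, n = 4) in floxed vehicle libraries and 40.4 ± 2.47 CPM in IRKO vehicle libraries, a fall of 0.61 on the log2 scale counted over the whole gene. Of 15 astrocyte markers, Slc1a3 and Aqp4 were the most abundant, the list summed to 4808 to 5119 CPM in floxed vehicle, 4795 to 5093 in floxed insulin and 4455 to 4616 in floxed IGF-1 libraries, and to 5049 to 5341, 5066 to 5238 and 4818 to 4878 CPM in the IRKO groups. Gjb6 was near 0, with 0 to 3 counts. All 16 microglia markers were detected. Their sum was 1602 to 1712 CPM in floxed vehicle, 1430 to 1542 in floxed insulin, 1462 to 1565 in floxed IGF-1, 1961 to 1994 in IRKO vehicle, 1697 to 1768 in IRKO insulin and 1685 to 1793 in IRKO IGF-1 libraries. Oligodendrocyte lineage markers, led by Olig1 and Olig2, summed to 306.2 to 331.3 CPM in floxed vehicle, 377.1 to 418.5 in floxed insulin and 419.5 to 448.3 in floxed IGF-1 libraries, and to 332.1 to 354.2, 434.3 to 440.8 and 461 to 492.7 CPM in the IRKO groups. Neuron markers, led by Stmn2 and Map2, summed to 148.5 to 152.8, 171.9 to 182.4 and 168.4 to 181.5 CPM in the floxed groups in the same order, and to 126.7 to 138.1, 145.2 to 149.7 and 147.5 to 156.2 CPM in the IRKO groups. Fibroblast and mural markers summed to 359.8 to 434.4 CPM in a library, and floxed IGF-1 libraries, at 359.8 to 382.8 CPM, lay just below floxed vehicle ones, at 383.6 to 414.8 CPM. The part of the astrocyte, oligodendrocyte, neuron and fibroblast lists in the results was not tested. In bulk RNA, fewer cells of a type and less RNA per cell cannot be told apart.

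Promoter windows from RefSeq (GRCm38.p6), each 250 bases before to 50 after an annotated start, were found for 6 of the 9 genes: 5 windows for Egr2 and 1 each for Klf2, Klf4, Klf6, Ier3 and Dusp1. Egr1, Klf10 and Ier2 were not matched. 7 motifs were searched on both strands: the serum response factor site (CArG box) and the MEF2 site by their usual consensus, the cyclic AMP response element (CRE) TGACGTCA, the FOXO site GTAAACA, the EGR site GCGTGGGCG or GCGGGGGCG, the GC box GGGCGG and the ETS site CCGGAAG. The EGR site with 5 central G bases overlaps a GC box when a further G follows. Parts of 4 promoters are shown, of genes that fell in the average over ligands and genotypes and whose windows hold a motif other than the GC box. Capitals mark motif matches, and the bases run 5′ to 3′ on the gene's own strand.
Klf2: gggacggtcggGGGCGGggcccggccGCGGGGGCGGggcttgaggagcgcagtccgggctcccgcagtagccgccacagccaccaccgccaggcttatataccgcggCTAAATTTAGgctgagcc
Klf4: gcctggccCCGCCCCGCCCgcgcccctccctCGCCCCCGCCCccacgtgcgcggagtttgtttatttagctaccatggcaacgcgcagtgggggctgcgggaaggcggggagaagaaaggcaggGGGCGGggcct
Egr2: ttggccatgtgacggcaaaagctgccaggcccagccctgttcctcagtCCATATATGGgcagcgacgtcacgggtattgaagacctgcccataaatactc
Dusp1: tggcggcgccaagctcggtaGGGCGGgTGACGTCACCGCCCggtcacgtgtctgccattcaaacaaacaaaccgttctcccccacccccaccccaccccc

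The Klf2 stretch (chr8:72318837-72318961, plus strand) runs from 225 to 101 bases before the start. It holds 2 GC boxes, the second overlapping an EGR match, and a MEF2 match. The Klf4 stretch (chr4:55532566-55532700, minus strand) holds 4 GC boxes, 1 of them overlapping an EGR match, and no other motif of the 7. The Egr2 stretch (chr10:67537749-67537848, plus strand) holds the CArG box CCATATATGG at chr10:67537797-67537806, which lies in 3 of the 5 Egr2 windows. Another CArG box, CCTTTTTTGG at chr10:67537494-67537503, lies in 1 further Egr2 window. GC boxes lie in 2 of the 5 Egr2 windows. The Dusp1 stretch (chr17:26508543-26508642, minus strand) holds a CRE with a GC box on each side. It lies inside the GENCODE span of Dusp1 given above, whose 5′ end is at 26562128. The Egr2 stretch also lies inside the span of its gene. The Klf6 and Ier3 windows each hold 1 GC box. Among all 32851 windows of this length in the table, 1.63% hold a CArG box, 1.79% a CRE, 3.47% an EGR match, 3.19% a MEF2 match and 35.7% a GC box. The FOXO and ETS letters, held by 3.65% and 8.86% of all windows, are in none of the 10 windows of these genes. A match describes letters and not a bound site, and a missing match says only that these letters are not in the window.

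**Figure D1:**
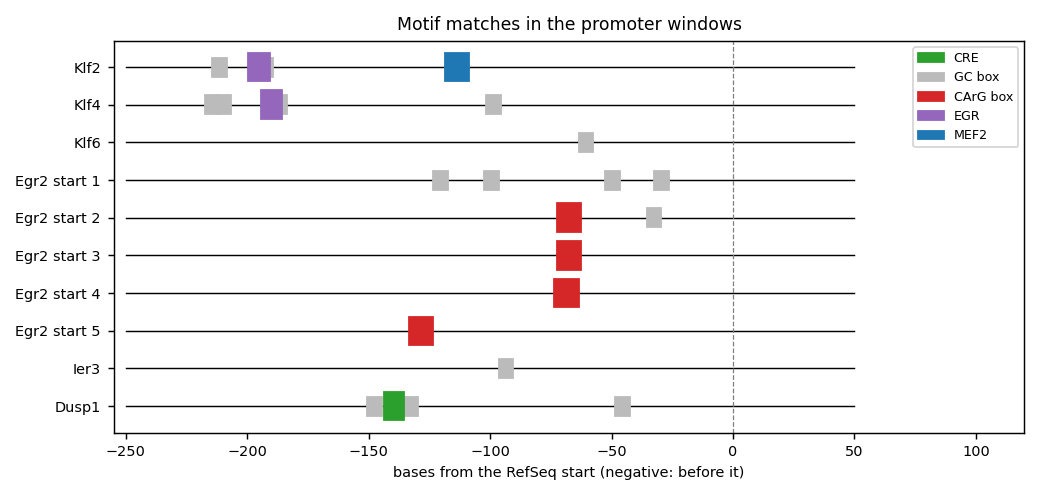
Position of motif matches in the 10 RefSeq promoter windows of 6 genes, in bases from the annotated start; coloured boxes are matches, black lines the windows. The CArG box matches are in Egr2 windows 2 to 5, the CRE in Dusp1, and the EGR matches in Klf2 and Klf4.

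Per kilobase of exon, the 9 genes spanned a wide range of levels in floxed vehicle libraries. Ier3 was highest at 147.7 ± 10.1 CPM per kb, followed by Klf6 at 56 ± 2.10. Klf2 at 7.92 ± 0.684 and Ier2 at 7.68 ± 0.923 came next and overlapped, as did Dusp1 at 5.79 ± 0.602 and Klf4 at 5.67 ± 0.394. Klf10 at 3.3 ± 0.307, Egr1 at 1.76 ± 0.340 and Egr2 at 0.727 ± 0.0774 were the lowest, with no overlap between neighbours. Over all libraries Ier3 stood at percentile 98.1 and Klf6 at 93.2 of the tested genes by CPM per kb, and Egr2 at percentile 12. Egr2 rested on 18 to 53 counts in a library, so its folds are the least precise of the 9.

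**Figure D2:**
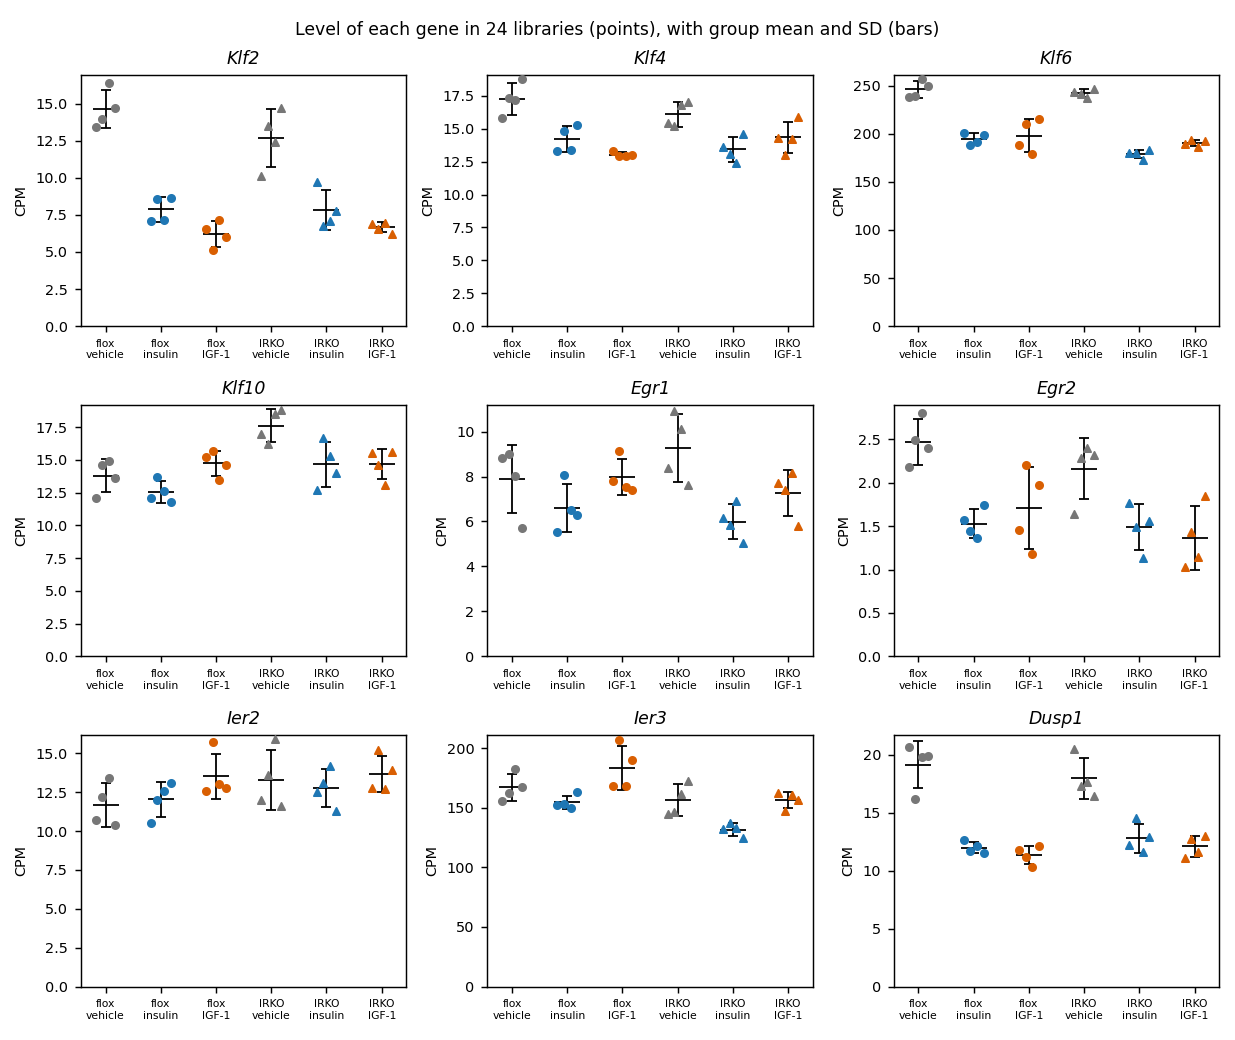
Level of each gene in CPM (vertical axis, from 0) in the 24 libraries by group; points are libraries, circles floxed control and triangles IRKO, and bars show the mean and SD of 4. Klf2, Klf6 and Dusp1 under insulin or IGF-1 lie below every vehicle library of the same genotype, and Ier2 overlaps between vehicle and ligand in both genotypes.

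After 6 h with ligand, the members that moved mostly fell. All libraries were taken at this time, so an earlier rise or fall was not measured. Insulin in floxed control cells lowered 5 of the 9 (Klf2, Klf4, Klf6, Egr2 and Dusp1) and raised 0, where 45.7% of all 15599 tested genes were called, 21.4% lower and 24.3% higher. IGF-1 in floxed control cells lowered the same 5 and raised Ier3, where 50.8% of all genes were called, 24.4% lower and 26.4% higher. In IRKO cells insulin lowered 7 (Klf2, Klf4, Klf6, Klf10, Egr1, Ier3 and Dusp1), where 46.4% of all genes were called, 21.7% lower and 24.7% higher. IGF-1 in IRKO cells lowered 6 (Klf2, Klf6, Klf10, Egr1, Egr2 and Dusp1), where 52% were called, 25.1% lower and 26.9% higher. The median log2 change of the 9 was -0.28, -0.31, -0.43 and -0.34 in these 4 comparisons, beside 0.00, 0.00, 0.01 and 0.00 for all tested genes. Calls are at an adjusted p under 0.05 from edgeR's quasi-likelihood test, corrected over all tested genes by the Benjamini-Hochberg method. Both ligands of a genotype were compared with the same 4 vehicle libraries.

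Averaged over both ligands and genotypes, 7 of the 9 fell and 0 rose, and Ier2 and Ier3 did not pass the test; 64.9% of all genes were called in that average, 31.7% lower and 33.1% higher. The microglia markers also fell in it, 12 of 16 with 0 higher and a median log2 change of -0.18. With their mean log2 level added to the fit as a covariate, 3 of the 7 calls held. Calls over all 15599 genes went from 10117 to 5406. Klf2 at -0.92 (adjusted p = 0.000185), Klf6 at -0.30 (0.000323) and Dusp1 at -0.58 (0.0015) held, beside -0.94, -0.36 and -0.62 without the covariate. Egr1 at -0.23 (0.466), Egr2 at -0.45 (0.388), Klf4 at -0.31 (0.0575) and Klf10 at -0.17 (0.386) no longer passed. Without the covariate they stood at -0.31, -0.61, -0.28 and -0.14, so Klf4 and Klf10 were not smaller in size with it. This covariate itself differs between vehicle and ligand groups.

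**Figure D3:**
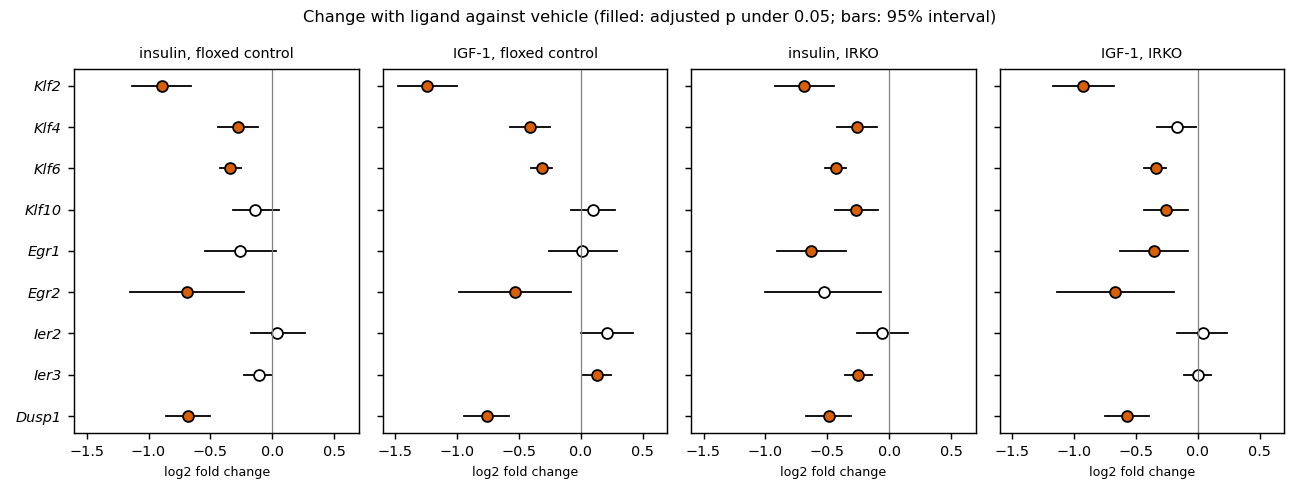
Log2 fold change of each gene with insulin or IGF-1 against vehicle in floxed control and IRKO cells, with 95% intervals; filled points have an adjusted p under 0.05. Klf2, Klf6 and Dusp1 are filled and left of 0 in all 4 panels, and Ier2 is open in all 4.

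Klf2, known for its role in endothelial cells and in keeping lymphocytes quiet, changed most. Its level in the floxed vehicle libraries was 13.4, 14, 16.4 and 14.7 CPM. Insulin gave 7.09, 8.59, 7.18 and 8.65 CPM in floxed cells, and IGF-1 gave 6.58, 5.11, 7.13 and 6 CPM. Every treated floxed library was below every vehicle one, and the lowest vehicle library was well above the highest treated one. The log2 fold change was -0.89 ± 0.115 (SE) with insulin (adjusted p = 2.21e-08) and -1.24 ± 0.119 with IGF-1 (adjusted p = 1.07e-11). These changes were larger in size than those of 96.1% and 98.3% of tested genes.

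In IRKO vehicle libraries Klf2 stood at 10.1, 13.5, 12.4 and 14.7 CPM. Insulin gave 9.72, 6.76, 7.08 and 7.75 CPM there and IGF-1 gave 6.89, 6.55, 6.96 and 6.23 CPM, again with no overlap, although insulin replicate 1 came close to vehicle replicate 1. The log2 fold change was -0.69 ± 0.116 with insulin (adjusted p = 4.19e-06) and -0.93 ± 0.120 with IGF-1 (adjusted p = 1.59e-08). Endothelial markers, whose cells are known for high Klf2, summed to 6.19 to 11.3 CPM over all libraries. Of the 8, Flt1 had 41 to 103 counts and Kdr 22 to 80 in a library, Pecam1, Tek and Cdh5 at most 14, and Cldn5, Emcn and Tie1 at most 2. The part of such cells in the Klf2 level was not tested.

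Klf4, best known as a reprogramming factor, fell less. Floxed vehicle libraries held 15.8, 17.3, 17.2 and 18.8 CPM, insulin ones 13.3, 14.8, 13.4 and 15.3 CPM, and IGF-1 ones 13.3, 12.9, 12.9 and 13 CPM, with no overlap between vehicle and either ligand. The log2 fold change was -0.28 ± 0.0795 with insulin (adjusted p = 0.00341) and -0.41 ± 0.0802 with IGF-1 (adjusted p = 3.99e-05). In IRKO cells vehicle libraries held 15.4, 15.2, 16.8 and 17 CPM and insulin ones 13.6, 13.1, 12.4 and 14.6 CPM, a log2 fold change of -0.26 ± 0.0799 (adjusted p = 0.00675). IGF-1 gave 14.3, 13, 14.2 and 15.9 CPM, which overlapped with vehicle, at -0.17 ± 0.0796 (adjusted p = 0.0764). Without IGF-1 replicate 4 that change was -0.23 (adjusted p = 0.0245). With the microglia score in the fit the insulin calls were lost, at -0.31 (adjusted p = 0.0909) in floxed and -0.30 (0.178) in IRKO cells. Neither change was smaller in size than without the score. The floxed IGF-1 call held, at -0.43 (adjusted p = 0.00179).

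Klf6, a broadly expressed factor induced by tissue injury, had the lowest biological coefficient of variation of the 9 over all libraries, 4.01%. It stood at 237.7, 239.1, 257.2 and 249.7 CPM in floxed vehicle libraries, 200.8, 188.6, 191.3 and 198.3 with insulin and 188.2, 209.7, 179.2 and 214.9 with IGF-1. IRKO libraries held 243.1, 241.3, 236.7 and 246.8 CPM with vehicle, 179.6, 180.4, 173.1 and 183 with insulin and 189.6, 193.6, 186.6 and 192.7 with IGF-1. No treated library reached the vehicle range of its genotype. The log2 fold changes were -0.34 ± 0.0418 and -0.31 ± 0.0418 with insulin and IGF-1 in floxed cells, and -0.43 ± 0.0419 and -0.34 ± 0.0418 in IRKO cells, with adjusted p from 1.66e-11 to 3.26e-08. Klf6 ranked high by p and not by size: its insulin change in floxed cells was larger than that of 71.3% of tested genes.

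Klf10, an early target of TGF-beta signalling, fell in IRKO cells, from a mean of 17.6 CPM with vehicle to 14.7 with either ligand. Floxed means were 13.8, 12.6 and 14.7 CPM with vehicle, insulin and IGF-1. The same IRKO vehicle libraries enter the genotype difference under vehicle given below, so these results are not separate. IRKO vehicle libraries held 17, 16.2, 18.5 and 18.8 CPM, insulin ones 12.7, 16.7, 15.3 and 14 and IGF-1 ones 15.5, 14.6, 13.1 and 15.6. Insulin replicate 2 was inside the vehicle range, and no IGF-1 library was. The log2 fold change was -0.27 ± 0.0861 with insulin (adjusted p = 0.0102) and -0.26 ± 0.0864 with IGF-1 (adjusted p = 0.0109), and without insulin replicate 1 the former was -0.21 (adjusted p = 0.062). In floxed cells Klf10 held 12.1, 14.6, 14.9 and 13.6 CPM with vehicle, 12.1, 13.7, 12.6 and 11.8 with insulin and 15.2, 15.7, 13.5 and 14.6 with IGF-1. These groups overlapped, at log2 -0.14 ± 0.0912 with insulin (adjusted p = 0.231) and 0.10 ± 0.0891 with IGF-1 (adjusted p = 0.384). The fall averaged over both genotypes, -0.14 (adjusted p = 0.0202), was -0.12 (adjusted p = 0.0531) without floxed vehicle replicate 3. With the microglia score in the fit the IRKO changes were -0.30 with insulin (adjusted p = 0.225) and -0.30 with IGF-1 (0.258).

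Egr1, the founding EGR factor, held 8.84, 9.02, 8.02 and 5.71 CPM in floxed vehicle libraries, 5.51, 8.05, 6.5 and 6.29 with insulin and 7.8, 9.13, 7.52 and 7.38 with IGF-1. All 3 floxed groups overlapped, at log2 -0.26 ± 0.142 with insulin (adjusted p = 0.135) and 0.01 ± 0.138 with IGF-1 (adjusted p = 0.941). Without vehicle replicate 4 the insulin change was -0.40 (adjusted p = 0.0204), and without insulin replicate 2 it was -0.38 (adjusted p = 0.0406). In IRKO cells vehicle libraries held 8.38, 10.9, 10.1 and 7.64 CPM and insulin ones 6.17, 5.83, 6.9 and 5.03, all below vehicle. That fall was -0.63 ± 0.139 (adjusted p = 0.000224), and did not pass with the microglia score in the fit, at -0.54 (adjusted p = 0.146).

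IGF-1 in IRKO cells gave 7.69, 7.42, 8.17 and 5.8 CPM of Egr1, which overlapped with vehicle. On the log2 scale this was -0.35 ± 0.136 (adjusted p = 0.0285). It did not pass without IRKO vehicle replicate 2 (-0.26, adjusted p = 0.131), vehicle replicate 3 (-0.31, 0.0808) or IGF-1 replicate 4 (-0.27, 0.124), nor with the microglia score in the fit (-0.25, 0.582).

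Egr2, known for hindbrain patterning and for myelination by Schwann cells, was the least abundant of the 9. Floxed vehicle libraries held 2.18, 2.49, 2.81 and 2.4 CPM and insulin ones 1.57, 1.44, 1.36 and 1.74, with no overlap. Insulin thus changed it by -0.69 ± 0.228 on the log2 scale (adjusted p = 0.0119). IGF-1 gave 1.46, 2.21, 1.18 and 1.98 CPM, a wide spread that touched the vehicle range, at -0.53 ± 0.223 (adjusted p = 0.0437). That call was lost without floxed vehicle replicate 2 (adjusted p = 0.0669), 3 (0.117) or 4 (0.0586), without floxed IGF-1 replicate 1 (0.1) or 3 (0.174), with no filter on low counts (0.0919) and in a fit of the compared groups alone (0.0553).

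In IRKO cells Egr2 stood at 1.64, 2.29, 2.4 and 2.32 CPM with vehicle, 1.77, 1.49, 1.13 and 1.56 with insulin and 1.03, 1.43, 1.15 and 1.85 with IGF-1. Vehicle replicate 1 was low and lay inside the range of the treated libraries. The log2 fold change was -0.53 ± 0.230 with insulin (adjusted p = 0.0532) and -0.67 ± 0.234 with IGF-1 (adjusted p = 0.0159). The insulin change passed without vehicle replicate 1 (-0.66, adjusted p = 0.0245) or insulin replicate 1 (-0.64, 0.0416), and the IGF-1 change did not pass without IGF-1 replicate 1 (-0.55, 0.0675). With the microglia score in the fit no Egr2 change passed: floxed cells gave -0.54 with insulin (adjusted p = 0.356) and -0.43 with IGF-1 (0.29), and IRKO cells -0.35 (0.637) and -0.47 (0.544).

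Ier2, a small nuclear early response protein, did not pass in any comparison. Its libraries ranged from 10.4 to 13.4 CPM with vehicle, 10.5 to 13.1 with insulin and 12.6 to 15.7 with IGF-1 in floxed cells, and from 11.6 to 15.9, 11.3 to 14.2 and 12.7 to 15.2 in IRKO cells. The largest ligand change was 0.21 with IGF-1 in floxed cells (95% interval 0.00 to 0.42, adjusted p = 0.088). It passed without floxed vehicle replicate 3, at 0.29 (adjusted p = 0.0294). The average over ligands and genotypes was 0.06 (95% interval -0.07 to 0.19).

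Ier3, a stress-induced regulator of cell survival, differed between ligands. Floxed vehicle libraries held 155.8, 162.5, 182.6 and 167.2 CPM, insulin ones 151.9, 152.8, 150.1 and 162.8 and IGF-1 ones 168.6, 206.9, 168.2 and 189.6. Insulin and vehicle overlapped, as did IGF-1 and vehicle, and every insulin library was below every IGF-1 library. The log2 change was -0.11 ± 0.0554 with insulin (adjusted p = 0.0919) and 0.13 ± 0.0549 with IGF-1 (adjusted p = 0.0395). The rise with IGF-1 was lost without floxed vehicle replicate 1 (adjusted p = 0.208), 2 (0.102) or 4 (0.0746) and without floxed IGF-1 replicate 2 (0.306) or 4 (0.14). It was also lost in DESeq2 (0.0701), with DESeq2's size factors in edgeR (0.0569), with library size alone (0.059), at a mean CPM of at least 1 (0.0891) and with the compared groups alone (0.0594). The insulin change passed without vehicle replicate 1 (-0.16, adjusted p = 0.0287) or insulin replicate 4 (-0.15, 0.0387), and with library size alone, no filter on low counts, a mean CPM of at least 1 or the compared groups alone, at -0.11 to -0.14 (adjusted p 0.0284 to 0.0386). With the microglia score in the fit the rise with IGF-1 was larger, at 0.20 (adjusted p = 0.0253), and the insulin change was -0.01 (0.943).

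In IRKO cells Ier3 held 144.7, 146.6, 161.7 and 172.8 CPM with vehicle, 132.1, 137.4, 132.9 and 124.3 with insulin and 162.2, 147.2, 160.9 and 156.3 with IGF-1. The insulin libraries were below all others. The fall with insulin was -0.25 ± 0.0558 on the log2 scale (adjusted p = 0.000294), and did not pass with the microglia score in the fit, at -0.13 (adjusted p = 0.418). IGF-1 gave 0.00 ± 0.0554 (95% interval -0.11 to 0.11, adjusted p = 0.976).

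Dusp1 fell in all 4 comparisons. Floxed vehicle libraries held 20.7, 16.2, 19.8 and 19.9 CPM, insulin ones 12.6, 11.7, 12.1 and 11.5 and IGF-1 ones 11.8, 11.2, 10.3 and 12.1. IRKO libraries held 20.5, 17.3, 17.6 and 16.4 CPM with vehicle, 12.2, 14.5, 11.6 and 12.9 with insulin and 11.1, 12.7, 11.6 and 13 with IGF-1. No treated library reached the vehicle range of its genotype. The log2 fold changes were -0.68 ± 0.0889 and -0.76 ± 0.0893 with insulin and IGF-1 in floxed cells, and -0.49 ± 0.0879 and -0.57 ± 0.0890 in IRKO cells, with adjusted p from 1.84e-09 to 1.28e-05. The IRKO insulin change was -0.44 (adjusted p = 0.0655) with the microglia score in the fit.

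Within groups, libraries were above their group's mean for 1 to 8 of the 9 genes. Floxed vehicle replicate 3 was above its group's mean for 8 of the 9, by 0.11 on the log2 scale on average, and floxed IGF-1 replicate 3 was above for 1, at -0.10. IRKO vehicle replicate 1 was above for 2, at -0.11, as was floxed vehicle replicate 1, at -0.06, and the other 20 libraries were above for 3 to 6.

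Insulin and IGF-1 differed for few of the 9 genes. Ier3 was lower with insulin in both genotypes, by -0.25 ± 0.0552 on the log2 scale in floxed cells (adjusted p = 0.00616) and -0.25 ± 0.0561 in IRKO cells (adjusted p = 0.00567). It was the only member called. Of all genes 2.59% were called in floxed cells, 1.1% lower and 1.49% higher, and 2.67% in IRKO cells, 1.61% lower and 1.06% higher. The IRKO split was 251 lower and 166 higher, and 225 and 220 when libraries were scaled by their size alone. In the average of both genotypes, where 8.55% of all genes were called, 4.29% lower and 4.26% higher, Klf2 was 0.29 ± 0.0907 higher with insulin than with IGF-1 (adjusted p = 0.0346) and Ier3 -0.25 ± 0.0393 lower (adjusted p = 2.08e-05). The floxed Ier3 difference was -0.19 (adjusted p = 0.0686) without IGF-1 replicate 2 and -0.21 (0.0502) with the microglia score in the fit. The Klf2 difference did not pass without any 1 of 7 libraries, at 0.23 to 0.29 (adjusted p 0.0544 to 0.133): floxed insulin replicates 2 and 4, floxed IGF-1 replicates 2 and 4, IRKO insulin replicate 1 and IRKO IGF-1 replicates 2 and 4.

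The other 7 genes did not pass, and their averaged intervals were -0.48 to -0.07 for Egr1, -0.36 to 0.34 for Egr2, -0.10 to 0.13 for Klf4, -0.12 to 0.00 for Klf6, -0.25 to 0.01 for Klf10, -0.28 to 0.02 for Ier2 and -0.05 to 0.21 for Dusp1. Egr1, lower with insulin at -0.28 (adjusted p = 0.084), passed without floxed insulin replicate 2 (-0.33, 0.0425) or IRKO IGF-1 replicate 4 (-0.33, 0.0408) and with no filter on low counts (-0.28, 0.0385).

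Between genotypes, 1 member was called under each treatment. Under vehicle Klf10 was higher in IRKO libraries, at 16.2 to 18.8 CPM against 12.1 to 14.9 CPM, by 0.35 ± 0.0866 on the log2 scale (adjusted p = 0.00633); 7.86% of all genes were called, 3.76% higher and 4.1% lower. Under insulin Ier3 was lower in IRKO libraries, at 124.3 to 137.4 CPM against 150.1 to 162.8 CPM, by -0.23 ± 0.0561 (adjusted p = 0.00465), where 10.5% of all genes were called, 4.94% higher and 5.53% lower. Under IGF-1 it was lower again, at 147.2 to 162.2 CPM against 168.2 to 206.9 CPM, by -0.23 ± 0.0552 (adjusted p = 0.00681), where 6.76% were called, 3.62% higher and 3.15% lower. Without floxed IGF-1 replicate 2 this was -0.17 (adjusted p = 0.0651). When libraries were scaled by their size alone, the split of all genes called turned over, from 771 higher and 863 lower to 942 and 698 under insulin and from 586 and 640 to 665 and 534 under vehicle.

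Microglia markers were higher in IRKO libraries: 14 of 16 under vehicle (median log2 0.26), 10 under insulin (0.20) and 8 under IGF-1 (0.18), with 0 lower. With their score in the fit, Klf10 under vehicle stood at 0.39 (adjusted p = 0.349), Ier3 under insulin at -0.34 (0.0668) and Ier3 under IGF-1 at -0.29 (0.0156). Klf6 under insulin was -0.12 ± 0.0423 lower in IRKO libraries and did not pass (adjusted p = 0.0578), although the 4 libraries of each group did not overlap. It passed in DESeq2 (-0.13, adjusted p = 0.0369), with no filter on low counts (-0.13, 0.0366), in the compared groups alone (-0.12, 0.0406) and without floxed insulin replicate 2 (-0.14, 0.0488).

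**Figure D4:**
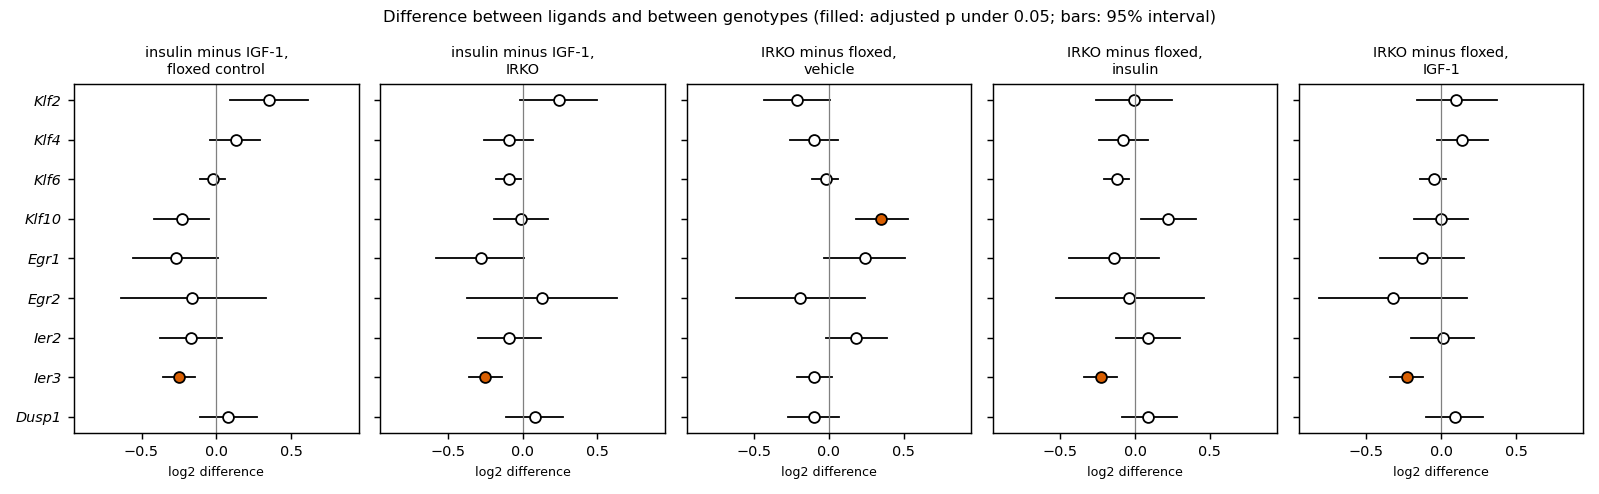
Log2 difference of each gene between insulin and IGF-1 (left 2 panels) and between IRKO and floxed control cells (right 3 panels), with 95% intervals; filled points have an adjusted p under 0.05. Ier3 is filled in 4 of the 5 panels and Klf10 under vehicle alone.

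The response to ligand was not shown to differ between genotypes for any of the 9. edgeR called 0 members and 0 of all genes (0%) for either ligand at an adjusted p under 0.05. At an unadjusted p under 0.05 it gave 0 members and 838 genes for insulin, and 2 members and 822 genes for IGF-1. DESeq2 called 0 members for either ligand, and 0 and 2 genes in all. The 2 members were Klf10, whose IGF-1 response was 0.36 lower in IRKO cells (log2 -0.36, 95% interval -0.61 to -0.11, adjusted p = 0.775), and Klf4 (0.24, 95% interval 0.01 to 0.47, adjusted p = 0.935). The intervals for Klf2 were -0.13 to 0.54 for insulin and -0.03 to 0.66 for IGF-1, and for Egr1 -0.78 to 0.03 and -0.76 to 0.03.

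Genes of the same families and pathways were read from the same fit, averaged over ligands and genotypes, where 31.7% of all genes were lower and 33.1% higher with a median of 0.00. Of 10 other KLF genes tested, 7 fell and 1 rose, with a median of -0.46. Klf11, a close relative of Klf10, went from 9.85 ± 0.362 CPM in floxed vehicle to 3.73 ± 0.487 with insulin and 2.97 ± 0.715 with IGF-1, an average log2 change of -1.41 ± 0.0771 (adjusted p = 1.17e-19). Klf15, a factor of nutrient metabolism, fell by 0.97 on the log2 scale (adjusted p = 5.64e-19), and Klf3, a repressor of the family, rose by 0.11 (adjusted p = 0.00047). Klf3 passed with IGF-1, at 0.20 in floxed and 0.19 in IRKO cells, and not with insulin, at 0.06 (adjusted p = 0.289) and -0.02 (0.673); insulin and IGF-1 differed by -0.18 (4.97e-05).

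Of the 3 other genes of the EGR circuit tested, 2 rose: the EGR corepressors Nab1 at 0.28 ± 0.0232 (adjusted p = 9.47e-14) and Nab2 at 0.21 ± 0.0344 (adjusted p = 8.64e-07). Egr3, chosen after its value was seen, stood at -0.28 (adjusted p = 0.0723). Nab1 went from 110.3 ± 3.21 CPM in floxed vehicle to 135.1 ± 3.90 with insulin and 133.3 ± 2.27 with IGF-1.

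Of 40 other early response genes, 21 fell and 7 rose, with a median of -0.12. The share called was near the 64.9% of all genes, of which 31.7% were lower and 33.1% higher. Ccn2, a matrix protein gene, fell by 1.15 on the log2 scale (adjusted p = 1.02e-24), from 43.1 ± 2.92 CPM in floxed vehicle to 21.2 ± 1.87 with insulin and 17.9 ± 1.02 with IGF-1. Nr4a1, an orphan nuclear receptor, fell by 0.93 (adjusted p = 3.68e-07). Hbegf, a ligand of the EGF receptor, rose by 0.65 (adjusted p = 1.76e-16) and the AP-1 subunit gene Fosl1 by 0.63 (adjusted p = 4.37e-09). Both were higher with IGF-1 than with insulin, by 0.37 (adjusted p = 9.02e-07) and 0.50 (adjusted p = 9.03e-05).

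The list that joins the phosphatases acting on ERK with other feedback inhibitors of that pathway went mostly the other way from Dusp1, though not all its phosphatases did. Of 11 tested, 7 rose and 1 fell, with a median of 0.15, where 33.1% of all genes rose and 31.7% fell. Dusp5, a nuclear ERK phosphatase, rose by 0.70 ± 0.105 (adjusted p = 1.76e-07) and Spry4, a feedback inhibitor of receptor signalling, by 0.70 ± 0.0381 (adjusted p = 1.04e-19), while Spry1 fell by 0.40 (adjusted p = 3.7e-07). Among the other phosphatases Dusp7 rose by 0.63 (adjusted p = 4.91e-14). Dusp2 (0.04, adjusted p = 0.612), Dusp4 (-0.07, 0.221) and Dusp6 (0.03, 0.574) did not pass. Of these 11, 8 were lower with insulin than with IGF-1 and 0 higher, where 4.29% of all genes were lower and 4.26% higher. The 3 tested phosphatases of p38 and JNK, the substrates shared with Dusp1, did not pass in the average of ligand against vehicle, with a median of -0.04. With insulin in IRKO cells 1 of these 3 was higher and 1 lower, and none passed in the other single comparisons with vehicle. Averaged over genotypes, 1 was lower with insulin than with IGF-1.

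RNA of Srf, the gene of serum response factor, which binds the CArG box, was 0.32 ± 0.0347 higher (adjusted p = 8.01e-11). The protein was not measured. In its list with the ternary complex factors 3 of 6 genes rose and 2 fell. Of 15 cytoskeletal targets of that factor, 8 rose and 2 fell, again a share called near the 64.9% of all genes (33.1% higher, 31.7% lower). Cnn1, a smooth muscle calponin gene, rose by 0.95 (adjusted p = 6.73e-23), from 27.1 ± 1.96 CPM in floxed vehicle to 53.2 ± 1.92 with insulin and 50.6 ± 1.79 with IGF-1. Of 18 genes of the ERK cascade, 9 rose, among them Hras by 0.34 (adjusted p = 3.06e-11), and 6 fell, among them Rps6ka5 by 0.57 on the log2 scale (adjusted p = 4.38e-14) and Mapk3 by 0.46 (adjusted p = 4.61e-18). Of 7 genes of the ERK5 and MEF2 branch, known to drive Klf2 in endothelium, 4 fell and 0 rose, with a median of -0.10. The share called was below the 64.9% of all genes (31.7% lower, 33.1% higher). Of 7 glucocorticoid response genes, 3 rose and 4 fell, led by Tsc22d3 at 0.20 and Sgk1 at -0.42.

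**Figure D5:**
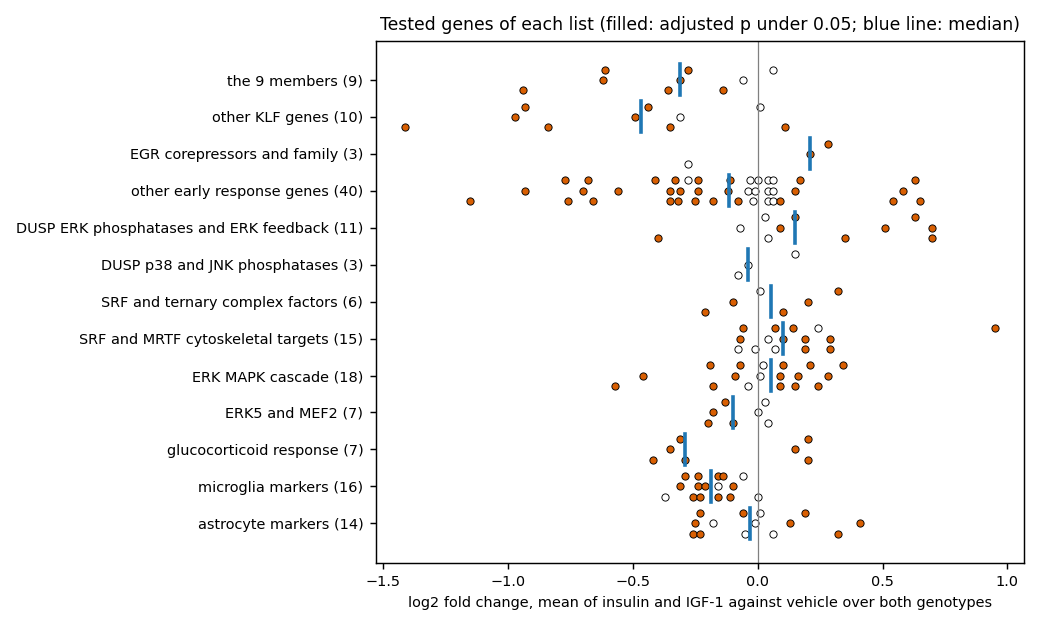
Log2 fold change with ligand, averaged over insulin, IGF-1 and both genotypes, of every tested gene (points) in each list, with the number tested in parentheses; filled points have an adjusted p under 0.05 and blue lines are medians. The 9 genes and the other KLF genes lie mostly left of 0, and the ERK feedback genes mostly right of it.

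The 3 members with the widest range of group means were Klf2, at 1.23 on the log2 scale, Egr2 at 0.83 and Dusp1 at 0.75. Among 12085 tested genes with a mean log2 CPM of at least 2, those whose 6 centred group means lay nearest to Klf2 were Fat4, Mxd4 and Ubald1, at a mean absolute difference of 0.0517, 0.0554 and 0.0571. For Egr2 they were Zbtb10, Klhl21 and Mxra8, at 0.0402, 0.0420 and 0.0429. For Dusp1 they were Ppp1r26, Vps37d and Atg9a, at 0.0239, 0.0257 and 0.0271. Their own log2 change with ligand ran from -0.55 for Zbtb10 to -0.99 for Ubald1. The likeness is over 6 group means that share libraries and is a description.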

How the data were processed

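RNA of 24 libraries was analysed. The authors deposited raw counts of reads per gene, 1 table per library; mm10, STAR 2.7.7a, R 4.0.4, edgeR and DESeq2 are listed, without roles, per the submitters' processing notes, and the counting program is not given in the sources used here. For each library, 3 lines naming no gene held summary totals and entered neither library sizes nor tests. By these totals 14.5 to 23.2% of reads were not counted as a unique overlap. The 9 genes and the gene lists were chosen with earlier results of these data known. Counts were tested with edgeR 4.0.16 in R 4.3.3 (minimum count 10, minimum total 15; 15599 genes left; TMM factors 0.982 to 1.02), with 1 mean per group and p-values adjusted over all tested genes in each of 13 comparisons. The fit was tested on simulated data. CPM used TMM sizes, and log2 CPM a prior count of 2. The biological coefficient of variation was 4.92%. Errors of folds are standard errors. Replicates differed by more than sampling noise (chi-square per gene 2.17 to 6.88). Named genes of a list were the 2 largest rises and 2 largest falls with ligand among those called. Egr3 and the other ERK phosphatases were named beside these. Alternatives were DESeq2 1.42.0, other scalings and filters, fits of the compared groups, a replicate block, a microglia score and leaving out each library.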

Additional observations from a re-analysis of the deposited data

Results flagged for a closer look

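Within a group of 4, a library is listed here when its gap to the nearest other, divided by the range of the group, was above Dixon's 95% critical value for 4 values, and 2 of the 54 groups examined (9 genes in 6 groups) met this; chance alone gives about 1 in 20. Egr2 in IRKO vehicle replicate 1 was the lowest of its group at 1.64 CPM, with 2.29, 2.4 and 2.32 CPM in the others and a gap of 0.855 of the range. Ier2 in floxed IGF-1 replicate 2 was the highest of its group at 15.7 CPM, with 12.6, 13 and 12.8 CPM in the others and a gap of 0.871 of the range.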

How the results depend on the processing

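No call of a member changed sign under any alternative run. Counts of members called stayed within 1.5 times the value in the report with DESeq2's size factors, with scaling by library size alone and with a minimum mean CPM of 1, in all 13 comparisons. In IRKO against floxed control under insulin the count was 2 with DESeq2, 2 with no filter on low counts and 2 in the compared groups alone, with Klf6 added to Ier3. With the microglia score as a covariate the counts were 3 for insulin in floxed cells, 2 for insulin in IRKO cells, 3 for IGF-1 in IRKO cells, 3 for the ligand average, 0 for insulin against IGF-1 in floxed cells, and 0 for IRKO against floxed control under vehicle and 0 under insulin; the cause was not tested. That covariate lowered the calls over all genes from 10117 to 5406 in the ligand average, from 7131 to 4483 for insulin in floxed cells, and from 7239 to 3978 and 8114 to 4267 for insulin and IGF-1 in IRKO cells. For IRKO against floxed control they went from 1226 to 119 under vehicle. The counts under insulin were 1634 and 262, and those under IGF-1 1055 and 615, without and with it. With no filter on low counts 19 genes were called for each difference in response, against 0.

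Leaving out each library gave 5 to 6 members for insulin and 4 to 6 for IGF-1 in floxed cells, 7 to 8 and 5 to 6 in IRKO cells, and 6 to 8 for the ligand average. It gave 0 to 1, 1 and 1 to 2 for insulin against IGF-1 in floxed cells, IRKO cells and their average. It gave 1, 1 to 2 and 0 to 1 for IRKO against floxed control under vehicle, insulin and IGF-1, and 0 for both differences in response. Ier3 in the ligand average (-0.06, adjusted p = 0.141) passed without floxed vehicle replicate 1, floxed IGF-1 replicate 2 or IRKO vehicle replicate 1, each at -0.08 (adjusted p 0.034 to 0.0422). It also passed with library size alone (-0.08), no filter (-0.06) and the mean CPM minimum (-0.07), at adjusted p 0.0382 to 0.0496. Egr2 with insulin in IRKO cells passed with DESeq2's size factors (-0.54), library size alone (-0.55) and the mean CPM minimum (-0.55), and Klf4 with IGF-1 in IRKO cells with the last 2 (-0.19 and -0.18).

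The replicate numbers did not pair the libraries: the deviations of 60 same-numbered pairs correlated at -0.115 to 0.0611, and 4 of 24 libraries were closest to their own number. With a replicate block 1 call changed, Egr1 in insulin against IGF-1 averaged over genotypes (-0.27, adjusted p = 0.0369), for 3 members called in place of 2. Depth limits Egr2 most, at 18 to 53 counts in a library.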
